A study of Mus musculus with 24 samples.

Results

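The glucocorticoid receptor (Nr3c1), the enzyme that activates its ligand in liver (Hsd11b1), and 8 genes known as targets of the receptor (Zbtb16, Fkbp5, Tsc22d3, Sgk1, Mt1, Mt2, Dusp1 and Errfi1) were followed in livers of Ogg1-/- and WT mice. These 10 genes were picked by name among 19938 genes that the array annotation gives a symbol of their own, and each was to be represented by the probe set selected on its mean over all 24 arrays. Each had a single such probe set (1 of 35556), so this selection by level removed nothing. The genes were chosen with earlier results of these data known, so that their p-values are a description.

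Ogg1-/- mice lack the DNA glycosylase that excises oxidised guanine from DNA. Male C57BL6 mice, 10 weeks old at the start according to the labels, were housed singly with free access to chow or a high-fat diet (HFD) for 10 weeks, and total liver RNA was hybridised to a mouse gene array, 1 array a mouse. The 4 groups were Ogg1-/- mice on chow, WT mice on chow, Ogg1-/- mice on the HFD and WT mice on the HFD, with 6 livers in each. Ogg1-/- is a deletion carried in every tissue, and the allele was kept on the C57BL/6J background by crosses between heterozygotes.

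Glucocorticoids, corticosterone in the mouse, are secreted by the adrenal gland in a daily rhythm and in response to stress and fasting. In liver they bind the glucocorticoid receptor, which leaves its chaperones in the cytoplasm, enters the nucleus and binds DNA at glucocorticoid response elements or through other factors. Targets include Fkbp5, a feedback inhibitor that lowers the affinity of the receptor for its ligand, and Tsc22d3, also called Gilz. They also include kinases and phosphatases (Sgk1, Dusp1), the metal-binding metallothioneins (Mt1, Mt2) and regulators of metabolism and growth (Zbtb16, Errfi1).

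Promoter windows were taken from RefSeq on GRCm38.p6, each from 250 bases before to 50 bases after an annotated start, and 8 of the 10 genes had at least 1 window (Sgk1 6, Tsc22d3 3, Errfi1 2 and the others 1). Letter patterns were searched on both strands by exact match, and a match is a description of the letters only. The perfect palindrome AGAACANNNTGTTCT, a glucocorticoid response element, was present in 3 of 32851 windows (0.00913%), and 1 of these belongs to Sgk1. The half-site AGAACA, which the palindrome contains, was present in 19.0% of windows, or in at least 1 window of 21.3% of genes, and in windows of Tsc22d3 and Sgk1. The E-box CACGTG, which the clock proteins Arntl and Clock bind, was present in 7.15% of windows, or in at least 1 window of 8.09% of genes, and was found for 3 of the 8 (Fkbp5, Sgk1 and Dusp1). The D-box TTATGTAA, bound by Dbp and Tef, was present in 0.938% of windows, or in at least 1 window of 1.11% of genes, and in 0 of the 8 genes. The metal response element core (TGCACNC or TGCGCNC) was present in 25.7% of windows, or in at least 1 window of 28.2% of genes. It was found for 5 of the 8 (Hsd11b1, Sgk1, Mt1, Mt2 and Dusp1).

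The sequences shown are the Mt2 upstream region with its metal response cores and the core before the Mt1 start, since these genes varied together, the rare Sgk1 palindrome, and the E-boxes of Fkbp5 and Dusp1, since the groups differed in clock genes. Capitals mark the motif, and each sequence runs 5′ to 3′ on the strand of the gene. Positions on GRCm38.p6 are chr8:94172368-94172617 (plus strand) for Mt2, chr8:94179054-94179083 (plus strand) for Mt1, chr10:21993693-21993722 (plus strand) for Sgk1, chr17:28486301-28486330 (minus strand) for Fkbp5 and chr17:26508581-26508610 (minus strand) for Dusp1. The stretches of Mt2, Fkbp5 and Dusp1 lie upstream of the annotated gene, and those of Mt1 and Sgk1 lie inside the annotated extent of the gene, upstream of a later start.
Mt2: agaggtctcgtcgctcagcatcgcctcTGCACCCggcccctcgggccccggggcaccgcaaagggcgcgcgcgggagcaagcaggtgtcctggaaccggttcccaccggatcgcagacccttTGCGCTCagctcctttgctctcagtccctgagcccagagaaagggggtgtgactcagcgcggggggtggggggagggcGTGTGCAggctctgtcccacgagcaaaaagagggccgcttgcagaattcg
Mt1: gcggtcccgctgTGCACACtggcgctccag
Sgk1: atgcggaaAGAACAGAATGTTCTcggagat
Fkbp5: gcaagggccagaCACGTGggcagcggtgaa
Dusp1: tcaccgcccggtCACGTGtctgccattcaa

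Before the members are described, 1 liver is set apart by its score, though it was kept in the full fit. On the main axis of variation among livers within the chow groups, Ogg1-/- chow replicate 1 scored 80.9, whereas the rest lay between -46.1 and 54.8. The axis was drawn from the chow livers, replicate 1 among them and no HFD liver. Its extreme score is therefore partly built in and is a description. Array values were RMA log2 signals with array medians of 5.90 to 5.97, and correlations between pairs of arrays were 0.952 to 0.993. Ogg1 itself was at 5.85 to 5.997 in Ogg1-/- livers and 6.26 to 6.55 in WT livers on chow, and at 5.70 to 6.03 in Ogg1-/- livers and 6.34 to 6.57 in WT livers on the HFD, so the labelled genotypes did not overlap in this gene. The 6 hepatocyte markers (Alb, Ttr, Apoa1, Tat, Cps1, Hnf4a) had mean log2 values of 13.2 to 13.6 in every liver, and 0 of 6 passed for the genotype in either diet. Of all 19938 genes, 0.617% passed for the genotype on chow and 23.7% on the HFD.

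The groups differed in the phase markers of the circadian clock, and this bears on every value below, because neither the labels nor the methods give the hour at which each liver was taken. A clock contrast was computed for each liver as the mean of Dbp, Tef, Ciart and Per3, which peak together late in the day in mouse liver, minus Arntl, which peaks in the opposite phase. It averaged 2.82 ± 0.335 in Ogg1-/- livers and -0.253 ± 0.649 in WT livers on chow, and 3.67 ± 0.156 in Ogg1-/- livers and 1.65 ± 0.661 in WT livers on the HFD (log2, SD, n = 6 each). The genotypes did not overlap in either diet (exact two-sided permutation p = 0.00216 in each, the smallest that 6 against 6 allows). The genes of the contrast were listed with earlier results of these data known, so these p-values are a description. Of 12 genes in this phase, 10 were higher in Ogg1-/- livers on chow and 10 on the HFD (limma, adjusted p under 0.05), against 0 lower. That is 83.3% in each diet, beside 0.617% of all 19938 genes on chow and 23.7% on the HFD. The 12 include Dbp, Tef, Ciart and Per3. Of 4 measured genes in the phase of Arntl, only Arntl itself passed on chow, lower in Ogg1-/- livers (25%). On the HFD 2 of these 4 were lower and 1, Cry1, was higher (0.35, limma adjusted p = 0.0348), or 75%. For diet in Ogg1-/- livers, 6 of the 12 were higher and 3 lower on the HFD (75%, beside 11.5% of all genes). Genotype and sampling phase therefore cannot be told apart in these groups from the level of a gene alone.

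In the limma fit over all 35556 probe sets, 0 of the 10 genes passed an adjusted p under 0.05 for the genotype on chow, where 0.478% of all probe sets passed. At an unadjusted limma p under 0.05 there were 2, Nr3c1 and Tsc22d3, beside 6393 of all 35556 probe sets. The methods' t-test with Benjamini-Hochberg adjustment gave 0. On the HFD, 2 of the 10 passed, Nr3c1 lower and Zbtb16 higher in Ogg1-/- livers, a share near the 19.8% of all probe sets that passed, so the count sets the members no further apart than genes in general. Those 2 genes were also the ones whose 6 Ogg1-/- and 6 WT livers did not overlap on the HFD, where 12.1% of probe sets did not overlap. With Tsc22d3, 3 had an unadjusted limma p under 0.05 on the HFD, beside 11198 of all 35556 probe sets. The interaction of genotype and diet passed for 0 of the 10, with 0.00281% of all probe sets passing. At an unadjusted limma p under 0.05 there was 1 of the 10, Zbtb16, beside 2447 of all 35556 probe sets. For diet, 2 of the 10 passed in Ogg1-/- livers (Nr3c1 lower, Dusp1 higher on the HFD), where 9.53% of all passed. In WT livers 0 of the 10 passed, where 0.925% of all passed. Unadjusted limma p under 0.05 for diet held for 5 in Ogg1-/- livers (Nr3c1, Zbtb16, Tsc22d3, Dusp1 and Errfi1), beside 8985 of all 35556 probe sets. In WT livers it held for 1, Hsd11b1, beside 4762 of all probe sets. The median log2 difference of the 10 genes between Ogg1-/- and WT was 0.003 on chow and 0.12 on the HFD, with 5 and 9 estimates above 0, beside medians of 0.029 and 0.027 over all 19938 genes.

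**Figure D1:**
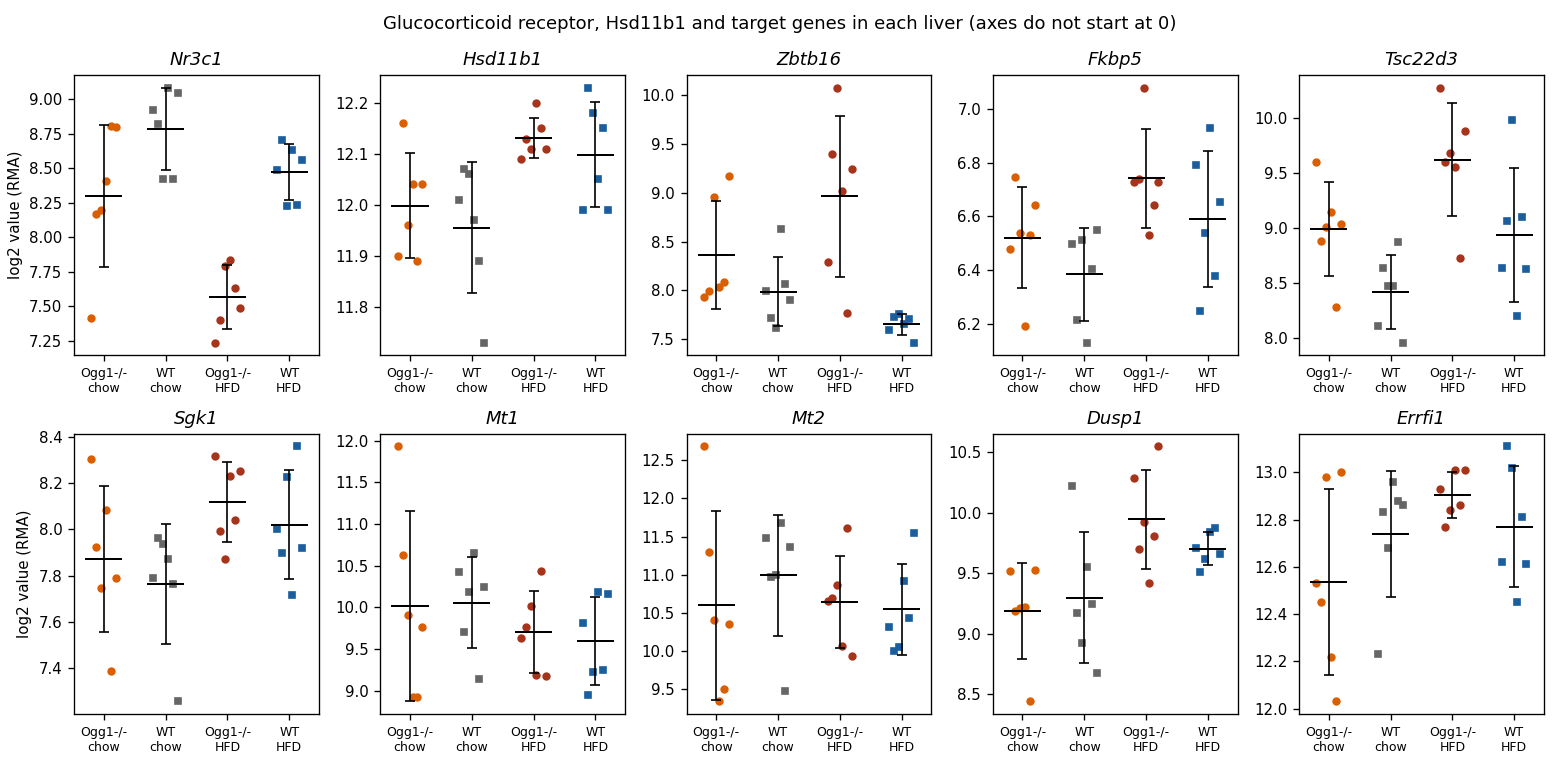
Each panel plots 1 gene. The vertical axis is the log2 RMA value and the 4 columns are Ogg1-/- chow, WT chow, Ogg1-/- HFD and WT HFD livers. Points are single livers, the long bar is the mean and the whiskers are 1 SD (n = 6). Nr3c1 in the 6 Ogg1-/- HFD livers (7.24 to 7.84) lies below all 6 WT HFD livers (8.22 to 8.70).

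The receptor gene Nr3c1 was lowest in Ogg1-/- livers on the HFD. On the HFD its log2 value had a lowest of 7.24, a median of 7.56 and a highest of 7.84 in Ogg1-/- livers, against 8.22, 8.52 and 8.70 in WT livers. Every Ogg1-/- liver was below every WT liver. The difference was -0.91 (SE 0.18, 95% interval -1.29 to -0.53), a 1.88-fold lower level in Ogg1-/- livers (limma adjusted p = 0.00293).

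On chow the Nr3c1 values had a lowest of 7.42, a median of 8.30 and a highest of 8.80 in Ogg1-/- livers, against 8.42, 8.87 and 9.08 in WT livers. The groups overlapped, and the low end of the Ogg1-/- group was replicate 1, the liver set apart above. The difference of -0.49 (95% interval -0.86 to -0.11) did not pass (adjusted p = 0.183), and without that liver it was -0.31 (adjusted p = 0.450). Within Ogg1-/- mice, Nr3c1 averaged 7.57 ± 0.232 on the HFD and 8.30 ± 0.515 on chow, a difference of -0.73 (adjusted p = 0.0154), while in WT mice it averaged 8.47 ± 0.202 on the HFD and 8.79 ± 0.296 on chow (-0.31, adjusted p = 0.471). The difference between these diet effects did not pass (-0.42, 95% interval -0.96 to 0.11, adjusted p = 0.793). The diet difference in Ogg1-/- livers missed the threshold without Ogg1-/- chow replicate 5 (-0.63, adjusted p = 0.0533) or replicate 6 (-0.63, adjusted p = 0.0503), and it was -0.91 without replicate 1. It also missed the threshold with the clock contrast as a covariate (-0.52, adjusted p = 0.267), and with the axis described next as a covariate it was -0.34 (adjusted p = 0.0127).

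Nr3c1 followed the main axis of the livers closely. After group means were subtracted, its correlation with the axis score over the 24 livers was -0.939 (a description, since Nr3c1 is 1 of the probe sets from which the axis was drawn and all points share 1 normalization). The axis separated the genotypes on the HFD, at 32.0 ± 13.3 in Ogg1-/- livers and -7.03 ± 11.1 in WT livers (exact two-sided permutation p = 0.00216), and not on chow, at 1.41 ± 43.5 in Ogg1-/- livers and -26.4 ± 15.5 in WT livers (p = 0.156). With the axis score as a covariate, an alternative chosen after seeing the data, the Nr3c1 difference on the HFD was -0.41 (adjusted p = 0.0124). The genes with the most similar pattern over the 24 livers after subtraction of group means were Met (r = 0.966), the receptor of hepatocyte growth factor, and Wapl (r = 0.962), a cohesin release factor.

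Since a whole liver was measured, fewer cells of a type and less RNA per cell cannot be told apart. Endothelial markers moved in the same direction as Nr3c1 on the HFD, where 5 of 6 were lower in Ogg1-/- livers (Tek -0.73, Kdr -0.60, Clec4g -0.52 and Stab2 -0.49 among them) and 0 of 6 passed on chow. Their mean log2 level was 7.94 to 8.19 in Ogg1-/- livers and 8.30 to 8.82 in WT livers on the HFD. Of 6 stellate cell markers, 2 were lower (Lrat -0.96 and Dcn -0.85), and of 6 Kupffer cell markers 1 was higher (Cd5l 0.43) and 2 were lower (Vsig4 -0.85 and Clec4f -0.22). On the HFD the shares that passed were 83.3% (endothelial), 33.3% (stellate) and 50% (Kupffer), beside 23.7% of all 19938 genes. On chow 0.617% of all genes passed. These shares are a description, and the part of these markers in the Nr3c1 difference was not tested.

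**Figure D2:**
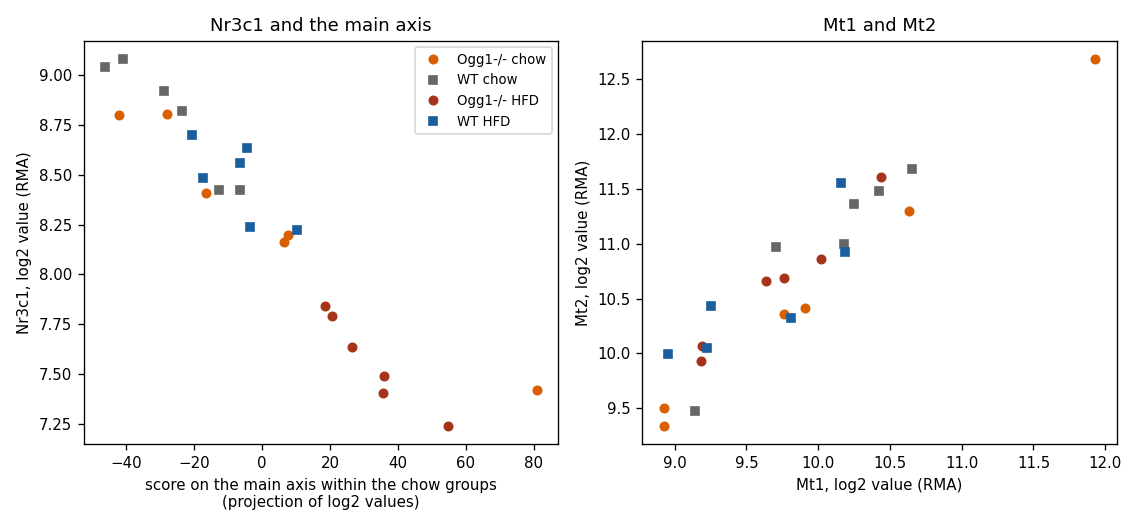
Left, the log2 value of Nr3c1 against the score of each liver on the main axis within the chow groups. Right, Mt2 against Mt1, both as log2 values. Each point is a liver and the colours are the 4 groups. Nr3c1 is lower in livers that score higher, and Mt1 and Mt2 are high and low in the same livers, with Ogg1-/- chow replicate 1 at the top (11.9 for Mt1 and 12.7 for Mt2).

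Some partners of the receptor passed on the HFD. Of 12 measured chaperones and coregulators, 2 were higher and 5 lower in Ogg1-/- livers on the HFD (58.3%, beside 23.7% of all 19938 genes), and 5 did not pass. On chow 0 of 12 passed, beside 0.617% of all genes. These shares are a description, with no test of the list. The lower ones included Hsp90aa1, the chaperone that holds the receptor ready for its ligand (-1.05, adjusted p = 0.0101), and the coactivators Ncoa3 (-0.51), Ncoa2 (-0.47), Ncoa1 (-0.45) and Crebbp (-0.43). The higher ones were Fkbp4, an immunophilin of the receptor complex (0.51, adjusted p = 0.00331), and the cochaperone Ptges3 (0.25). The median difference of the list was -0.30 on the HFD.

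Hsd11b1, which regenerates active corticosterone from its inactive form inside hepatocytes, was among the steadiest of the 10 genes. On the HFD it had a lowest of 12.09, a median of 12.12 and a highest of 12.20 in Ogg1-/- livers, against 11.99, 12.10 and 12.23 in WT livers. On chow these were 11.89, 12 and 12.16 in Ogg1-/- livers, against 11.73, 11.99 and 12.07 in WT livers. The genotypes overlapped in each diet. The genotype differences were 0.05 on chow (95% interval -0.09 to 0.18) and 0.03 on the HFD (-0.10 to 0.17). Its SD within groups, 0.0994, was at percentile 4.14 of all genes. Hsd17b6, a hydroxysteroid dehydrogenase, had the most similar pattern (r = 0.875).

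Among the other genes that set how much ligand reaches the receptor, Akr1d1, which clears corticosteroids by 5-beta reduction, was lower in Ogg1-/- livers on the HFD (-0.64, adjusted p = 0.0397) and narrowly missed the threshold on chow (-0.94, adjusted p = 0.0506). Serpina6, the corticosteroid-binding globulin, was higher on the HFD than on chow in Ogg1-/- livers (0.33, adjusted p = 0.0423) and in WT livers (0.44, adjusted p = 0.0345), and did not pass for genotype. H6pd, which supplies the cofactor of Hsd11b1, had differences of 0.23 on chow (adjusted p = 0.138) and 0.19 on the HFD (adjusted p = 0.0574).

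Zbtb16, a zinc finger repressor also called Plzf, had the largest genotype difference of the 10 on the HFD. There it had a lowest of 7.77, a median of 9.13 and a highest of 10.08 in Ogg1-/- livers, against 7.46, 7.68 and 7.76 in WT livers. The groups did not overlap, but the gap was narrow, since the lowest Ogg1-/- liver (replicate 5, 7.766) lay just above the highest WT liver (replicate 3, 7.763). The difference was 1.32 (SE 0.29, 95% interval 0.72 to 1.91), a 2.49-fold higher level in Ogg1-/- livers (limma adjusted p = 0.0042). The gene was listed with this difference already known, so that the value is a description.

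The spread of Zbtb16 was itself unequal, with an SD of 0.827 in Ogg1-/- livers and 0.109 in WT livers on the HFD. On chow its values had a lowest of 7.93, a median of 8.06 and a highest of 9.17 in Ogg1-/- livers, against 7.62, 7.95 and 8.63 in WT livers. Only replicates 3 (8.96) and 6 (9.17) of the Ogg1-/- chow group stood above the WT range. The chow difference was 0.37 (95% interval -0.22 to 0.97, adjusted p = 0.510). The interaction, 0.94 (95% interval 0.11 to 1.78), had an unadjusted limma p of 0.0291 but did not pass over all probe sets (adjusted p = 0.666). Diet differences were 0.60 in Ogg1-/- livers (adjusted p = 0.187) and -0.34 in WT livers (adjusted p = 0.646). The most similar patterns were those of Acrbp (r = 0.778) and Cep85 (r = 0.718).

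**Figure D3:**
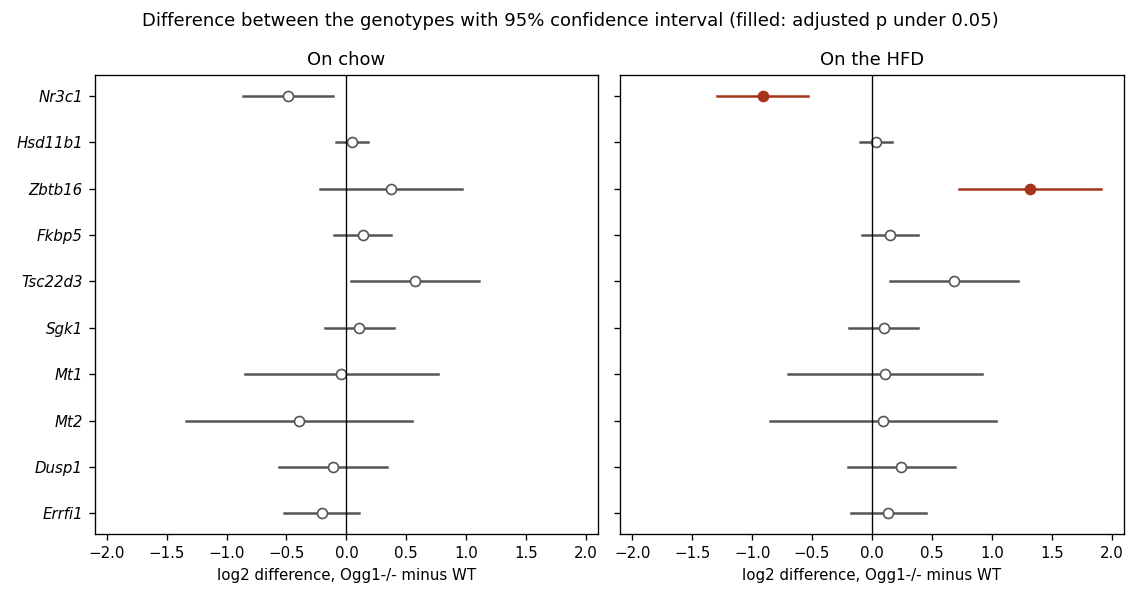
Log2 difference, Ogg1-/- minus WT, of each gene on chow (left) and on the HFD (right), with its 95% confidence interval from the limma fit. Filled symbols passed an adjusted p under 0.05. On chow none is filled, and on the HFD only Nr3c1 (-0.91) and Zbtb16 (1.32) are.

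Fkbp5 and Tsc22d3 respond to glucocorticoids in most tissues, and neither passed in any of the 5 comparisons. Fkbp5 on the HFD had a lowest of 6.53, a median of 6.73 and a highest of 7.08 in Ogg1-/- livers, against 6.25, 6.60 and 6.93 in WT livers. On chow it was at 6.19, 6.53 and 6.74 in Ogg1-/- livers, against 6.13, 6.45 and 6.55 in WT livers. The groups overlapped in both diets, with differences of 0.13 on chow (95% interval -0.10 to 0.37) and 0.15 on the HFD (-0.09 to 0.39).

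Tsc22d3 on the HFD had a lowest of 8.73, a median of 9.64 and a highest of 10.28 in Ogg1-/- livers, against 8.20, 8.85 and 9.99 in WT livers. On chow it was at 8.28, 9.03 and 9.60 in Ogg1-/- livers, against 7.96, 8.47 and 8.87 in WT livers. In both diets the Ogg1-/- livers were mostly above the WT livers, with overlap through Ogg1-/- HFD replicate 5 and Ogg1-/- chow replicate 5 at the low end and WT HFD replicate 3 at the high end. The differences were 0.57 on chow (95% interval 0.03 to 1.11, adjusted p = 0.251) and 0.68 on the HFD (0.15 to 1.22, adjusted p = 0.0672), and neither passed. A single liver decided the HFD result, since it passed without Ogg1-/- HFD replicate 5 (0.86, adjusted p = 0.0202) and without WT HFD replicate 3 (0.90, adjusted p = 0.0108). The diet difference in Ogg1-/- livers was 0.63 (adjusted p = 0.128) and passed without Ogg1-/- chow replicate 1 (0.75, adjusted p = 0.0418) and without Ogg1-/- HFD replicate 5 (0.81, adjusted p = 0.0485). Tedc2 (r = 0.868) and Dexi (r = 0.866) had the most similar patterns.

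The kinase Sgk1, which regulates ion transport and carries the palindrome shown above, did not pass in any of the 5 comparisons. On the HFD it had a lowest of 7.87, a median of 8.13 and a highest of 8.32 in Ogg1-/- livers, against 7.72, 7.96 and 8.36 in WT livers. On chow it was at 7.39, 7.86 and 8.30 in Ogg1-/- livers, against 7.26, 7.83 and 7.96 in WT livers. The ranges overlapped nearly throughout, with differences of 0.11 on chow (95% interval -0.18 to 0.40) and 0.10 on the HFD (-0.19 to 0.38). Within groups Sgk1 ran with Tsc22d3 (r = 0.679 over 24 livers after subtraction of group means) and against Nr3c1 (r = -0.652), and Tsc22d3 ran against Nr3c1 (r = -0.581). With the main axis, the same subtraction gave r = 0.578 for Sgk1, 0.514 for Tsc22d3 and -0.939 for Nr3c1. The part of that shared axis in these correlations was not tested. The gene closest in pattern to Sgk1 was Cd5l (r = 0.895), a macrophage gene, followed by Ccdc71l (r = 0.864).

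The metallothioneins were the most variable of the 10 genes, and they varied together. Mt1 on the HFD had a lowest of 9.18, a median of 9.70 and a highest of 10.44 in Ogg1-/- livers, against 8.95, 9.53 and 10.19 in WT livers. On chow it was at 8.92, 9.84 and 11.93 in Ogg1-/- livers, against 9.14, 10.21 and 10.65 in WT livers. The Ogg1-/- chow group held both the lowest and the highest liver of all 24, the highest being replicate 1.

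Mt2 on the HFD had a lowest of 9.93, a median of 10.68 and a highest of 11.61 in Ogg1-/- livers, against 10.00, 10.38 and 11.55 in WT livers. On chow it was at 9.34, 10.38 and 12.68 in Ogg1-/- livers, against 9.48, 11.18 and 11.68 in WT livers. Again replicate 1 was the highest Ogg1-/- chow liver. No genotype difference passed for either gene, and the intervals were wide, from -0.85 to 0.77 on chow and -0.70 to 0.91 on the HFD for Mt1, and from -1.34 to 0.55 on chow and -0.85 to 1.03 on the HFD for Mt2. Without Ogg1-/- chow replicate 1 the chow differences were -0.42 for Mt1 (adjusted p = 0.655) and -0.81 for Mt2 (adjusted p = 0.446), with the sign of the full fit but larger.

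Over the 24 livers, after subtraction of group means, Mt1 and Mt2 had a correlation of 0.962, and each was the other's closest gene. These genes lie next to each other on chromosome 8, with 5315 bases between the end of Mt2 (chr8:94172618-94173567) and the start of Mt1 (chr8:94178883-94180327). Their SDs within groups, 0.727 and 0.849, were both at percentile 99.9 of all genes, where the median SD was 0.167. The genes are closely related in sequence, and cross-hybridisation between their probe sets was not tested. Of 6 other genes of metal handling, 1 was higher (Slc30a1, the zinc exporter, 0.22) and 1 lower (Slc39a10, a zinc importer, -0.54) in Ogg1-/- livers on the HFD, and 0 of 6 passed on chow. The share on the HFD was 33.3%, beside 23.7% of all genes, and on chow 0.617% of all genes passed.

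Dusp1, the phosphatase that switches off MAP kinases, passed for diet in Ogg1-/- livers and for no genotype comparison. In Ogg1-/- livers it had a lowest of 9.42, a median of 9.86 and a highest of 10.55 on the HFD, against 8.44, 9.22 and 9.53 on chow. The 2 groups overlapped slightly, and the chow group held 1 low liver, replicate 5. The difference was 0.76 (SE 0.22, 95% interval 0.32 to 1.21), a 1.70-fold higher level on the HFD (limma adjusted p = 0.0293). In WT livers it was at 9.51, 9.68 and 9.87 on the HFD, against 8.67, 9.21 and 10.22 on chow, a difference of 0.41 (95% interval -0.04 to 0.85, adjusted p = 0.423) that did not pass. The difference between the diet effects was 0.36 (95% interval -0.28 to 0.99, adjusted p = 0.855), so the diet effect was not shown to differ between genotypes. The call in Ogg1-/- livers was lost without Ogg1-/- chow replicate 2, 4 or 5 or Ogg1-/- HFD replicate 1 or 6 (0.61 to 0.77, adjusted p 0.0507 to 0.0930), and with the main axis as a covariate (0.63, adjusted p = 0.138). Genotype differences were -0.11 on chow and 0.25 on the HFD.

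Errfi1, an inhibitor of the epidermal growth factor receptor, was measured in all 4 groups around a mean log2 value of 12.74. On the HFD it had a lowest of 12.77, a median of 12.90 and a highest of 13.01 in Ogg1-/- livers, against 12.45, 12.71 and 13.11 in WT livers. On chow it was at 12.03, 12.49 and 13 in Ogg1-/- livers, against 12.23, 12.85 and 12.96 in WT livers. The groups overlapped, with differences of -0.21 on chow (95% interval -0.52 to 0.11) and 0.14 on the HFD (-0.18 to 0.45), and the spread in Ogg1-/- livers was 0.0982 on the HFD and 0.393 on chow. Diet differences were 0.37 in Ogg1-/- livers (95% interval 0.06 to 0.68, limma adjusted p = 0.122) and 0.03 in WT livers (limma adjusted p = 0.956), and neither passed.

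Other genes known to be induced by glucocorticoids gave a mixed picture. Of 19 measured, 2 were higher and 1 lower in Ogg1-/- livers on chow, and 6 were higher and 3 lower on the HFD, or 15.8% on chow and 47.4% on the HFD beside 0.617% and 23.7% of all genes. The higher ones on the HFD included Per1 (1.43, adjusted p = 0.000588), a clock gene that glucocorticoids also induce directly, Cebpb (0.65), Angptl4 (0.64) and Klf15 (0.57). The lower ones were Pdk4 (-0.94, adjusted p = 0.0493), Pik3r1 (-0.67) and Tdo2 (-0.65), the tryptophan-degrading enzyme. On chow, Per1 (1.23) and Nfkbia (0.53) were higher and G6pc (-0.96), the last step of glucose release, was lower. The median of the 19 was 0.055 on chow and 0.19 on the HFD. Of 12 immediate early genes, 0 passed on chow, and on the HFD Zfp36 was higher (0.50) and Klf6 lower (-0.54). That is 16.7% on the HFD, below the 23.7% of all genes. Of 9 genes of the feeding state, on the HFD Srebf1 was higher (0.93) and Pdk4, Ppargc1a (-0.79) and Cpt1a (-0.40) were lower. Their share was 44.4%, beside the same 23.7% of all genes.

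The order of the group means set some members against the clock contrast. The clock contrast was highest in Ogg1-/- HFD livers, followed by Ogg1-/- chow, WT HFD and WT chow livers. Tsc22d3 had the same order of means, at 9.62 in Ogg1-/- HFD, 8.995 in Ogg1-/- chow, 8.94 in WT HFD and 8.42 in WT chow livers. Nr3c1 had the opposite order, at 7.57 in Ogg1-/- HFD, 8.30 in Ogg1-/- chow, 8.47 in WT HFD and 8.79 in WT chow livers. The other 8 genes had neither order. The main axis had the same order as the clock contrast, at 32.0 in Ogg1-/- HFD, 1.41 in Ogg1-/- chow, -7.03 in WT HFD and -26.4 in WT chow livers. An order of means therefore cannot tell the clock contrast from the axis. For Tsc22d3 the middle step was only 0.057. How many of all genes have either order was not counted. In all 10 genes neighbouring groups in the order of means overlapped.

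The question of time of day can be put within a group, where genotype and diet are constant. Over 40 correlations of a member with the clock contrast (10 genes in 4 groups of 6 livers), 0 had an adjusted p under 0.05 and 3 had an unadjusted exact permutation p under 0.05. Even a p of 1 ordering among all orderings of 6 livers stays above 0.05 when it is adjusted alone over 40. No single correlation could therefore have passed, and the count of 0 says little. The strongest was Errfi1 in Ogg1-/- HFD livers (Pearson r = 0.992, exact permutation p = 0.00278, adjusted p = 0.111). Its Spearman rho was 0.986 (exact permutation p = 0.00556, adjusted p = 0.222), with replicates 4 and 6 tied at 13.01 as rounded. Pearson r was 0.993 without the 2 livers farthest from the median. In the other groups the Errfi1 correlation was 0.776 in WT HFD, 0.136 in Ogg1-/- chow and 0.310 in WT chow livers. With the contrast built from all measured clock genes, the Ogg1-/- HFD value was 0.517.

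Tsc22d3 in WT HFD livers had r = 0.906 (exact permutation p = 0.0153, adjusted p = 0.306) and rho = 0.657 (exact permutation p = 0.175, adjusted p = 0.500). With this contrast it rested on WT HFD replicate 3 and 1 further liver, since r was 0.117 without the 2 farthest. With the contrast built from all measured clock genes, r was 0.941 (exact permutation p = 0.0125, adjusted p = 0.500). There r was 0.805 without the 2 farthest. Zbtb16 in WT chow livers had r = -0.809 (exact permutation p = 0.0306, adjusted p = 0.407) and rho = -0.886 (exact permutation p = 0.0333, adjusted p = 0.457), with r = -0.889 without the 2 farthest. In the other groups the Zbtb16 correlation was -0.0675 in Ogg1-/- chow, -0.152 in Ogg1-/- HFD and 0.451 in WT HFD livers. With all measured clock genes, Zbtb16 in WT chow livers had r = -0.697 (exact permutation p = 0.107, adjusted p = 0.646), and -0.975 without the 2 farthest.

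With the clock contrast as a covariate in the limma fit, the estimates for the genotype on the HFD were -0.41 for Nr3c1 (adjusted p = 0.999), 1.69 for Zbtb16 (adjusted p = 0.943) and -0.30 for Tsc22d3 (adjusted p = 0.999). In that fit 0 of 35556 probe sets passed for the genotype in either diet, and 1404 on chow and 1505 on the HFD had an unadjusted limma p under 0.05. As the contrast does not overlap between the genotypes, the fit has little to compare at equal contrast, and a call lost in it does not show that the difference is absent.

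**Figure D4:**
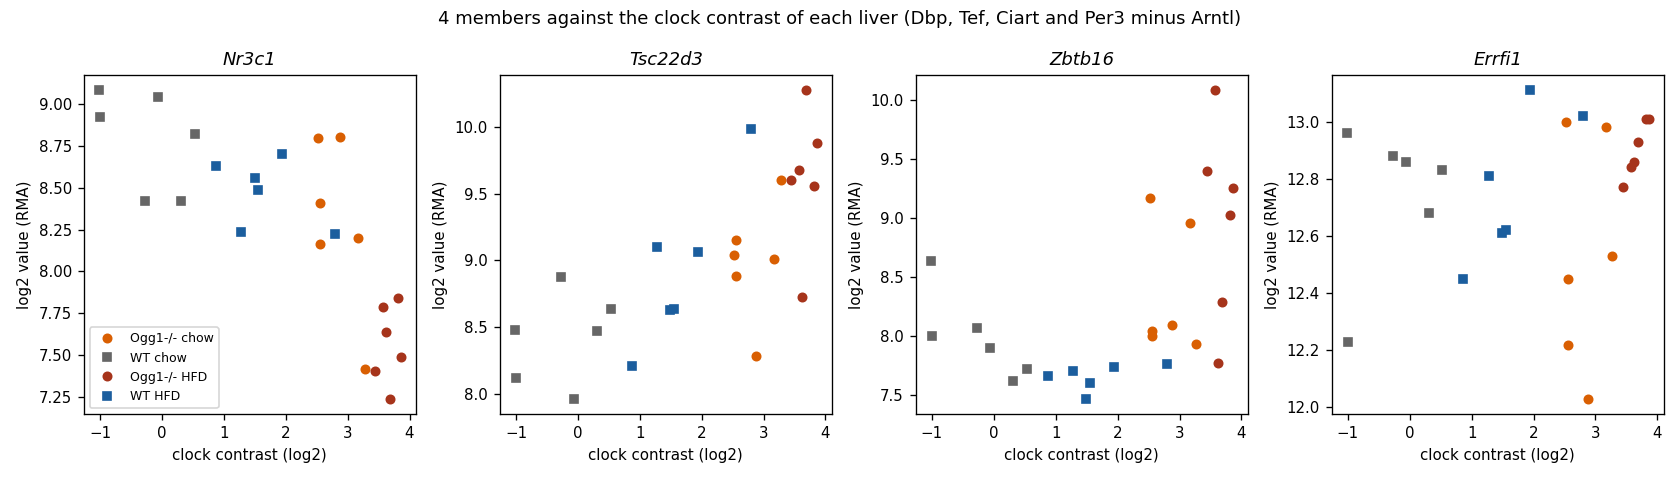
The log2 value of Nr3c1, Tsc22d3, Zbtb16 and Errfi1 (vertical axes) against the clock contrast of the same liver (horizontal axis, log2). Points are single livers, circles Ogg1-/- and squares WT, with colours for the 4 groups. The Ogg1-/- HFD livers (3.45 to 3.86) lie at the right of each panel and the WT chow livers (-1.02 to 0.529) at the left, and Errfi1 in the Ogg1-/- HFD livers rises with the contrast (r = 0.992).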

How the data were processed

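Liver RNA of 24 mice, 6 in each of 4 groups, was measured on 1 array each. The authors deposited log2 values per probe set, and their processing notes name RMA (robust multiarray averaging, which corrects background, quantile normalizes and summarises probes). The paper's methods also describe GC-RMA, so that the deposited values may not be those behind the authors' lists. No column was left out. Symbols came from the platform annotation (21789 probe sets with 1 symbol, 1621 with several, 12146 not named here), and 21698 were matched through Entrez identifiers to GRCm38.p6. One planned clock gene was not analysed here.

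Linear models were fitted to all 35556 probe sets with the lmFit and eBayes functions of limma (3.58.1, R 4.3.3), with 1 mean for each group and Benjamini-Hochberg adjustment over all probe sets. A gene passed at an adjusted p under 0.05. Single scores were compared by exact permutation tests. Correlations within groups used all orderings of 6 livers, adjusted over 40. The number of arrays limits the precision, and arrays give no sequencing depth. The fit was tested on simulated data with known changes before use. The simulated noise was independent between probe sets and equal between groups, unlike these livers. It therefore does not give the error rates of these data. Levels are compared between groups and not between genes, as probe sets differ in brightness.

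The members and gene lists were chosen with earlier results of these data known. The text names the 10 members, Ogg1, the genes of the clock contrast and Per1, up to 4 genes of each list with the largest difference among those that passed (otherwise the 1 with the smallest p), and the genes most like each member. A few further list genes (Serpina6, H6pd and all coregulators that passed) were named after their values were seen.

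Alternatives were a replicate block, median centring, quantile normalization, leaving out dim probe sets (highest group mean under 5), array weights, a trended robust prior, fold thresholds of 1.2 and 1.5, the 12 arrays of a diet alone, the methods' t-test, the clock contrast as a covariate, and leaving out each array. The score on the main axis was added as a covariate after seeing the data. Since each member has 1 probe set, averaging over probe sets changed nothing. Replicate numbers did not pair the arrays, with correlations of deviations from -0.27 to 0.43 (median -0.03) over 36 same-numbered pairs. The sample descriptions of all WT chow arrays and 1 WT HFD array end in a suffix that the others lack, and no source used here gives its meaning, so on chow it cannot be told apart from genotype. In WT livers it also nearly coincides with diet. The diet differences in WT livers and the interaction carry the same limit.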

Additional observations from a re-analysis of the deposited data

Results flagged for a closer look

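Among 40 sets of 6 values (10 genes in 4 groups), 3 held a liver that lay far from the other 5, and chance gives such a flag in about 1 of 20 groups. Sgk1 was at 7.256 in WT chow replicate 6, with the next liver at 7.763. Mt2 was at 9.478 in WT chow replicate 5, with the next at 10.97. Dusp1 was at 8.439 in Ogg1-/- chow replicate 5, with the next at 9.184, and without that liver the diet difference in Ogg1-/- livers was 0.61 (limma adjusted p = 0.0930) in place of 0.76 (adjusted p = 0.0293).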

How the results depend on the processing

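The counts of members that passed were 0 for the genotype on chow, for the interaction and for diet in WT livers in the full fit, under every alternative run and without each array in turn. On the HFD, 2 members passed for the genotype under every alternative except the clock contrast as a covariate (0) and the fit without dim probe sets (3), and 2 to 3 passed without single arrays. For diet in Ogg1-/- livers the count of 2 became 1 with the clock contrast (Nr3c1 lost) and 1 with the main axis as a covariate (Dusp1 lost). It was 0 to 4 without single arrays: 0 without Ogg1-/- chow replicate 5, 4 without Ogg1-/- HFD replicate 5, 3 without Ogg1-/- chow replicate 1, and 1 without Ogg1-/- chow replicate 2, 4 or 6 or Ogg1-/- HFD replicate 1 or 6. Tsc22d3 passed on the HFD when dim probe sets were left out (adjusted p = 0.0483), where fewer probe sets were tested, and without Ogg1-/- HFD replicate 5 both Zbtb16 (0.85, adjusted p = 0.0443) and Tsc22d3 (0.81, adjusted p = 0.0485) passed for diet in Ogg1-/- livers. No correlation with the clock contrast passed with the 5-gene contrast (3 of 40 at an unadjusted exact permutation p under 0.05) or with all measured clock genes (2 of 40). No single one of 40 could have passed, as even 1 ordering among all those of 6 livers stays above 0.05 when adjusted alone over 40. With 4 livers left, a correlation without the 2 farthest cannot reach the threshold, so that r alone is given.

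With the replicate number as a block, although the numbers do not pair the arrays, 0, 2, 0, 2 and 0 members passed in the 5 comparisons, as in the full fit, and the block changed no call of a member. Over all probe sets it gave 137 on chow against 170, 7015 on the HFD against 7045, and 276 for diet in WT livers against 329. The methods' t-test on each diet gave 33 probe sets on chow and 8098 on the HFD after Benjamini-Hochberg adjustment, with 0 and 2 members.

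Estimates that changed sign did so with neither value past the threshold. With the clock contrast as a covariate the genotype estimates on chow were 0.83 for Dusp1, -0.0136 for Hsd11b1, 0.71 for Mt1, 0.33 for Mt2, 0.28 for Nr3c1, -0.24 for Sgk1 and -0.93 for Tsc22d3. On the HFD they were -0.31 for Errfi1, -0.00476 for Hsd11b1, -0.13 for Sgk1 and -0.30 for Tsc22d3. The interaction was -0.0642 for Fkbp5, 0.00883 for Hsd11b1, -0.11 for Mt1 and 0.11 for Sgk1, and diet in WT livers -0.39 for Errfi1, 0.00892 for Mt1, 0.16 for Nr3c1, -0.41 for Tsc22d3 and 0.0212 for Zbtb16. With the main axis as a covariate, values were -0.0203 for Mt1 and -0.00163 for Tsc22d3 in the interaction, -0.48 for Mt1, -0.50 for Mt2 and -0.13 for Sgk1 on the HFD, -0.0547 for Sgk1 on chow and -0.43 for Mt2 for diet in Ogg1-/- livers. Array weights gave 0.0129 for Hsd11b1 and 0.0679 for Sgk1 in the interaction and 0.17 for Mt1 for diet in Ogg1-/- livers. Quantile normalization gave -0.0258 for Hsd11b1 on the HFD and 0.00829 for Sgk1 in the interaction. Without single arrays, ranges that spanned 0 were -0.24 to 0.072 for Dusp1 and -0.42 to 0.18 for Mt1 on chow, -0.0393 to 0.23 for Mt1 and -0.10 to 0.29 for Mt2 on the HFD, and -0.53 to 0.0747 for Mt1 and -0.21 to 0.46 for Mt2 for diet in Ogg1-/- livers. They were -0.0741 to 0.092 for Errfi1 for diet in WT livers, and in the interaction -0.0524 to 0.0837 for Fkbp5, -0.0349 to 0.0335 for Hsd11b1, -0.0694 to 0.53 for Mt1, -0.11 to 0.0894 for Sgk1 and -0.0355 to 0.32 for Tsc22d3. The cause of these changes was not tested.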
